A study of Mus musculus with 4 samples.

Results

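The genes of RNA polymerase I and RNA polymerase III and of the factors that place these enzymes on their promoters were followed in poly(A) RNA of mouse embryonic stem cells in which a subunit of RNA polymerase II was degraded. The members were taken by symbol: genes starting with Polr1, Polr3 or Gtf3c, the 5 subunits that all 3 nuclear polymerases share, and named initiation factors and regulators. Polr3g and Polr3gl, the alternative forms of 1 polymerase III subunit, were left out by that rule. It gave 39 of the 30282 genes in the table. They were 6 polymerase I subunits, 6 polymerase I initiation factors, 2 subunits common to polymerases I and III, 5 subunits common to all 3 enzymes, 8 polymerase III subunits, the factor TFIIIA, 3 TFIIIB genes, 6 TFIIIC genes, the repressor Maf1, and Polr1has, a neighbour of Polr1h that carries its name. Symbols are those of the table, which uses the newer names Polr1f and Polr1h (formerly Twistnb and Znrd1) beside the older name Cd3eap for the subunit also called Polr1g.

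All 4 libraries came from V6.5 cells, a mouse embryonic stem cell line, whose RPB3 carried a minimal auxin-inducible degron and GFP (dRPB3-mAID-GFP), grown with the GSK3 inhibitor CHIR99021 and the MEK inhibitor PD0325901. Every library had doxycycline (1 µg/ml, 12 h), which induces TIR1, the plant protein that marks the degron for destruction when auxin is present. The untreated group (2 libraries) had nothing more, and the IAA group (2 libraries) then had 500 µM of the auxin indole-3-acetic acid for 12 h according to the sample labels, although the treatment protocol also speaks of depletion for 1 h. The labels do not say whether the line is 1 clone or whether replicates are separate cultures, so the tests rest on spread among libraries that may be only technical, and no library with IAA but without the degron was analysed here.

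Polymerase I makes the precursor of the large ribosomal RNAs in the nucleolus, and polymerase III makes tRNAs, the small ribosomal RNA of the large subunit and other short RNAs. Growing cells, among them embryonic stem cells, devote much of their transcription to both. The proteins of both enzymes are themselves made from polymerase II transcripts, which is what poly(A) libraries measure. The RNAs that polymerases I and III produce were not analysed here, and an mRNA level does not give the amount of protein.

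Values are normalised read counts, that is, reads per gene divided by 1 size factor per library. The libraries held 8724737 to 9194432 reads, and members averaged from 170.0 to 2933 normalised read counts, so each passed the minimum mean of 10 used for testing. Polr2c, which encodes the degraded RPB3, read 2726 and 2885 in the untreated and 3242 and 3158 in the IAA libraries, a level of mRNA that does not check loss of the protein. Stem cell markers were high throughout (Nanog 9641 to 12264, Sox2 3077 to 3508), with 3 of 8 higher and 3 lower after IAA (5 and 2 with the median-of-ratios factors described below). Summed over the 6 fibroblast markers found, values were 428 and 500 without IAA and 351 and 359 with it, with Col3a1 at 2 or below. Most of each sum came from Pdgfrb (234 and 253 against 232 and 223), which was not called, and Thy1 (140 and 167 against 84 and 94). Of the 3 markers that could be tested, 2 were lower, Thy1 among them. Summed primitive endoderm markers read 183 to 214 in all libraries. Neural markers summed to 792 and 888 in the untreated and 1208 and 1144 in the IAA libraries, mostly from Nes. The 4 trophoblast markers summed to 516 and 537 without IAA and 540 and 517 with it. Among them Eomes was higher (176 and 186 against 228 and 215; 0.29, SE 0.11; adjusted p = 0.0359), a call lost without IAA replicate 1, IAA replicate 2 or untreated replicate 1. Krt8 (300 to 349) was not called, and Cdx2 and Elf5 were at 5 or below throughout. The part of these markers in the results below was not tested, and in such bulk RNA a change in the number of cells of a kind cannot be told apart from a change in RNA per cell.

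After IAA, the genes of polymerases I and III moved in both directions, and by small amounts. Of the 39 members, 11 were higher and 6 were lower (limma, adjusted p under 0.05), while 11.1% of all 14928 genes tested were called higher and 28.9% lower. Members were thus called higher in 28.2% and lower in 15.4% of cases, and called in either direction in 43.6%, near the 39.9% of all genes. Their median log2 difference (IAA minus untreated) was -0.03, against -0.11 for all genes tested. The widest differences were 0.55 for Brf1 and -0.38 for Maf1. Groups did not overlap, with both IAA libraries above both untreated ones, for 13 members (33.3%, against 22.5% of all genes), and below them for 17 (43.6%, against 45.6%, or 68.1% of all genes in either direction).

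**Figure D1:**
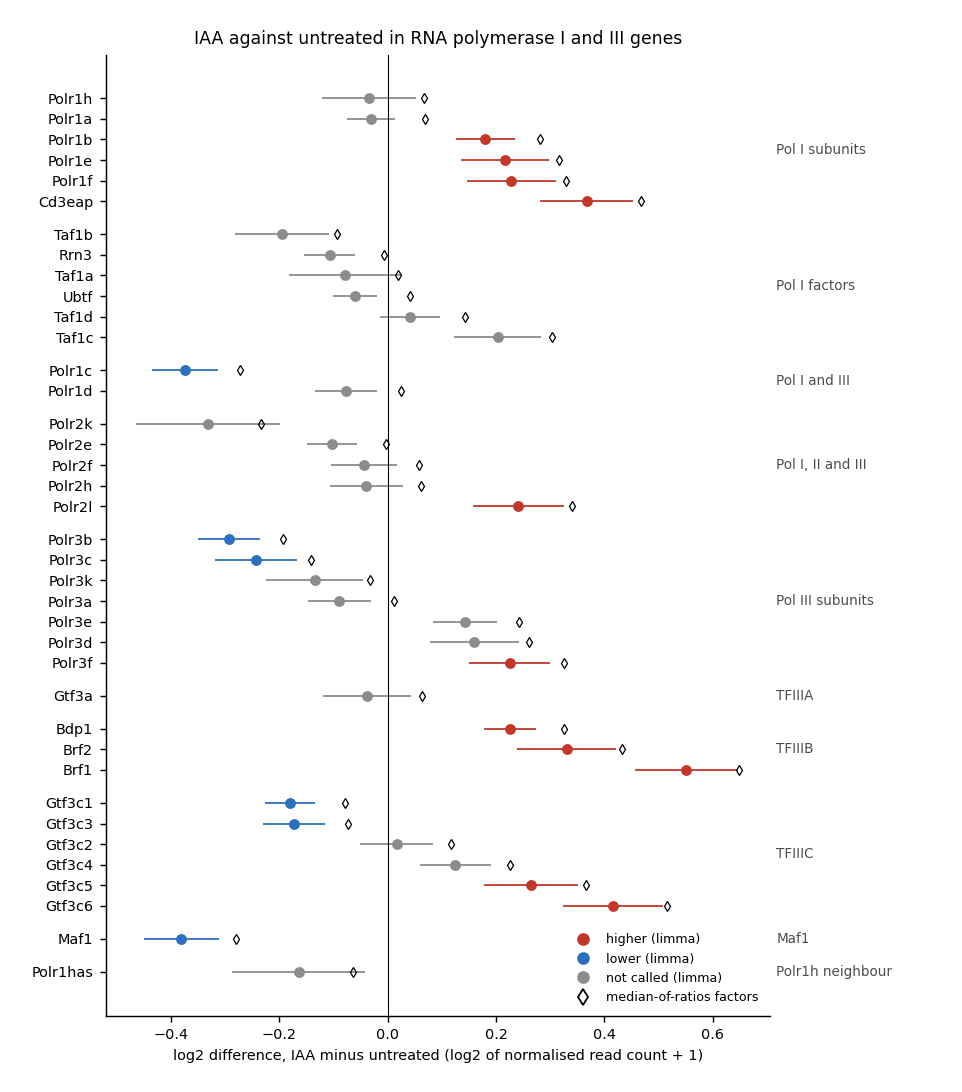
Log2 difference between the IAA and untreated libraries for 38 members, grouped by role. Filled points are the limma estimates at the deposited scaling, bars are 1 SE, colours mark the call, and open diamonds are the same differences with median-of-ratios factors. All 3 TFIIIB genes lie to the right of 0 and Maf1 lies to the left.

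The split between rises and falls depended on the scaling of the libraries. With median-of-ratios factors, which set the typical gene to no change (median of all genes -0.01), 16 members were higher and 3 lower, while 20.4% of all genes were higher and 20.4% lower (40.8% called in all), and the median of the members was 0.07. By the adjusted p of the authors' deposited table, 1 member was called, Polr1c, which was lower (2.47% of the genes with such a p were called higher and 9.57% lower, 12.0% in all). Of the 39 members, 17 were called at the deposited scaling. A smaller set, 8 of the 39, was also called in each of the 4 fits that left out 1 library and used unrounded values. Among all 14928 genes tested, 23.0% met the same rule (5.68% higher and 17.3% lower). The 8 members were Brf1, Gtf3c6, Cd3eap and Bdp1, which were higher, and Maf1, Polr1c, Polr3b and Gtf3c1, which were lower. All but Gtf3c1 were also called with median-of-ratios factors. Summed over members, the normalised read counts were 0.312% and 0.313% of all values in the untreated and 0.335% and 0.331% in the IAA libraries, a share that no scaling factor can alter. At the deposited scaling the sums over members overlapped (30913 and 31635 against 31409 and 30541). The total of all values was lower after IAA (9913931 and 10107567 against 9381022 and 9240287), so the larger share there goes with the smaller total.

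**Figure D2:**
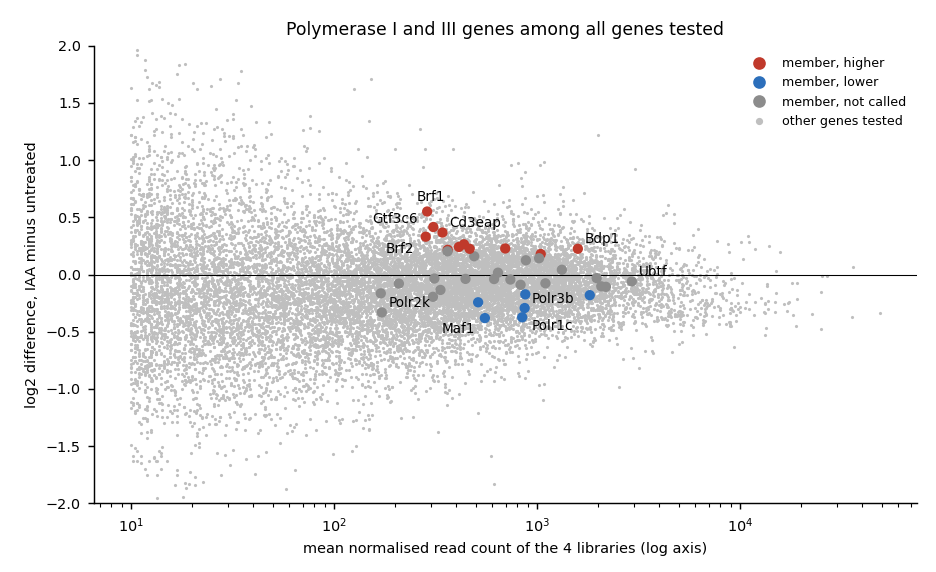
Log2 difference (IAA minus untreated) against the mean normalised read count of the 4 libraries, on a log axis, for 38 members (large points, coloured by call) and the other genes tested (small grey points; the vertical axis stops at 2 in either direction). The members lie inside the cloud of genes of like level, from -0.38 for Maf1 to 0.55 for Brf1.

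Among the subunits found in polymerase I alone, 4 of 6 were higher and none was lower, with a median of 0.20. Of all genes tested, 11.1% were higher and 28.9% lower. Cd3eap, which forms with Polr1e a pair of subunits that resembles the TFIIE and TFIIF initiation factors of polymerase II, read 284 and 314 in the untreated and 390 and 381 in the IAA libraries. Both IAA values were above both untreated ones. Means were 299 ± 21.2 and 385.5 ± 6.36 (SD, n = 2 each), which differ by 0.37 on the log2 scale (SE 0.09; adjusted p = 0.00195). Cd3eap lies on chromosome 7, 19356014 to 19359483, on the minus strand (GRCm38, GENCODE M21), and 4.25% of its exon bases overlap Ercc1 on the other strand. The strand setting of the counting is not given, so reads there cannot be assigned. Polr1e, the partner of Cd3eap, went from 336 ± 7.07 to 390.5 ± 9.19 (SD, n = 2 each; 0.22, SE 0.08; adjusted p = 0.0395), a call that was not made without any 1 of the 4 libraries.

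Of the large catalytic subunits of polymerase I, Polr1b was called higher and Polr1a was not called. Whether the pair differs was not tested. Polr1a, the largest, read 1985 and 1993 in the untreated and 1949 and 1944 in the IAA libraries (-0.03, SE 0.04; adjusted p = 0.61). Polr1b, the second largest, read 966 and 991 in the untreated and 1123 and 1094 in the IAA libraries (0.18, SE 0.05; adjusted p = 0.0123), with no overlap. The Polr1b value divided by that of Polr1a, a ratio that scaling leaves as it is, was 0.487 and 0.497 in the untreated and 0.576 and 0.563 in the IAA libraries. The call of Polr1b was lost without IAA replicate 1. Polr1f, a subunit of the stalk that binds initiation factors, read 581 and 706 in the untreated and 801 and 703 in the IAA libraries (0.23, SE 0.08; adjusted p = 0.0317). Its groups overlapped, and it was not called without IAA replicate 1 or without untreated replicate 1. Polr1h, a small zinc-binding subunit active in RNA cleavage, was at -0.03 (SE 0.09; adjusted p = 0.782). Polr1has starts 32 bases from Polr1h and runs the other way. It read 197 and 163 against 168 and 152, with overlapping groups (-0.16, SE 0.12; adjusted p = 0.31).

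None of the 6 polymerase I initiation factors was called at the deposited scaling, where 39.9% of all genes tested were called. Their median was -0.07. Ubtf, which bends and keeps open the ribosomal DNA, had the highest count of all members. It read 2956 and 3032 in the untreated and 2873 and 2871 in the IAA libraries (-0.06, SE 0.04; adjusted p = 0.25). Rrn3, the factor that makes polymerase I competent to start and a target of growth signalling, read 2169 and 2368 against 2109 and 2099 (-0.11, SE 0.05; adjusted p = 0.0782). In both genes the IAA values lay below the untreated ones without overlap, as in 4 of these 6 factors and 45.6% of all genes tested. With median-of-ratios factors Ubtf was at 0.04 and Rrn3 at -0.0065, and neither was called. The TAF1 proteins form the selectivity complex SL1 with TBP. Their values ran from -0.19 for Taf1b to 0.20 for Taf1c, with Taf1a at -0.08 and Taf1d at 0.04. With median-of-ratios factors Taf1c and Taf1d were called higher. Taf1c shares 16.7% of its exon bases with Dnaaf1 on the opposite strand, and Taf1d hosts several snoRNA genes in its exons as annotated.

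**Figure D3:**
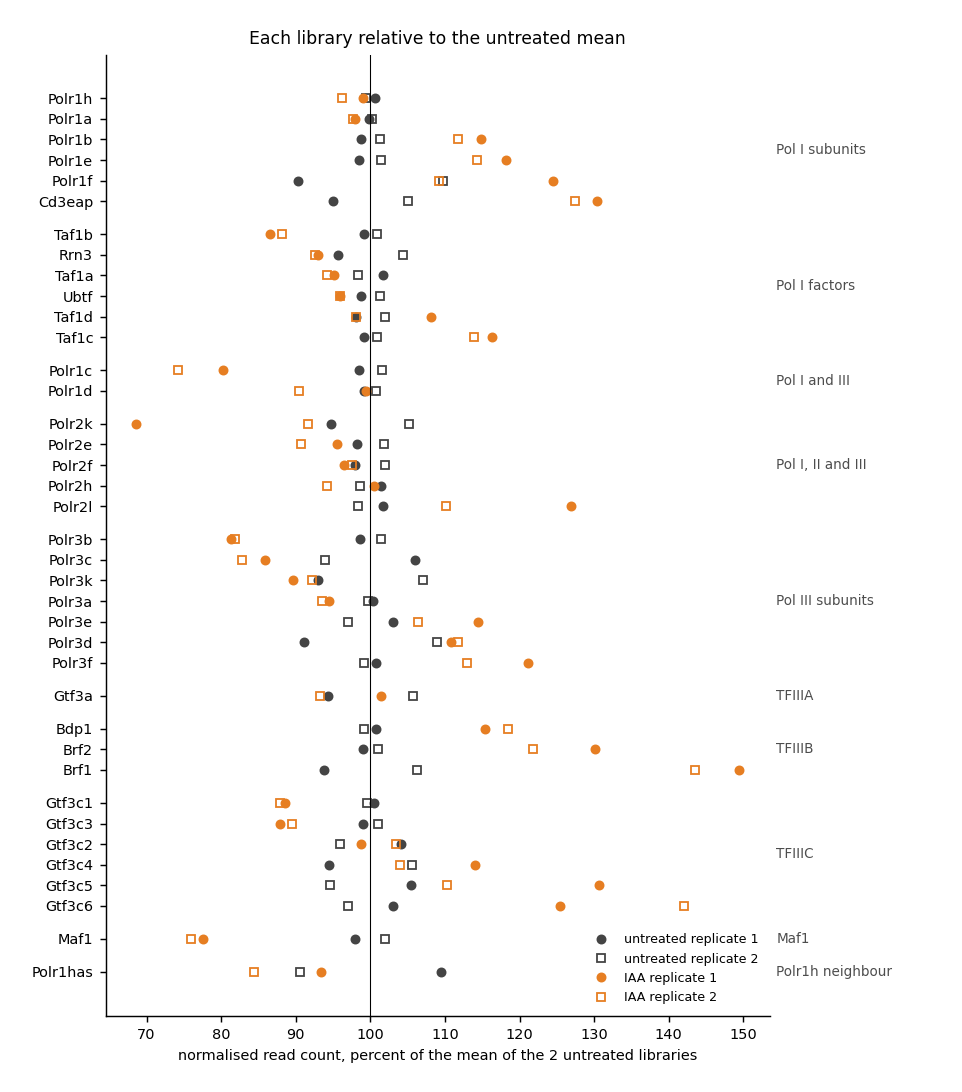
Normalised read count of each library as a percentage of the mean of the 2 untreated libraries, for 38 members by role. Dark grey marks are untreated and orange marks IAA libraries (filled for replicate 1, open squares for replicate 2). Brf1 reaches 146% and Maf1 76.8% of the untreated mean on average, and IAA replicates stand far apart for Polr2k, Polr2l, Gtf3c5 and Gtf3c6.

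The 2 subunits that polymerases I and III share and polymerase II lacks form a dimer on which each enzyme is assembled, and 1 of them fell. Polr1c (chromosome 17, 46243920 to 46248054, minus strand, GRCm38) read 940 and 969 in the untreated and 766 and 708 in the IAA libraries. Every IAA value was below every untreated one. The untreated mean of 954.5 ± 20.5 compared with 737 ± 41.0 after IAA (SD, n = 2 each), for a log2 difference of -0.37 (SE 0.06; adjusted p = 6.62e-05). In the authors' deposited table its log2 fold change was -0.37 with an adjusted p of 0.039. Its partner Polr1d read 1120 and 1138 against 1123 and 1021, with overlapping groups (-0.08, SE 0.06; adjusted p = 0.31). The Polr1c value divided by that of Polr1d was 0.839 and 0.851 in the untreated and 0.682 and 0.693 in the IAA libraries. This ratio was not tested.

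Of the 5 subunits shared by all 3 polymerases, Polr2l was higher and the other 4 were not called (39.9% of all genes tested were called). Polr2l, a small zinc-binding subunit, read 384 and 371 in the untreated and 479 and 416 in the IAA libraries (0.24, SE 0.08; adjusted p = 0.0257). The groups did not overlap, but the call was lost without IAA replicate 1 and without untreated replicate 2. Polr2k, also small and zinc-binding, read 181 and 201 against 131 and 175 (-0.33, SE 0.13; adjusted p = 0.0535), with the IAA replicates far apart. A pseudogene named Polr2k-ps is annotated, with which it may share reads. Polr2e, the most abundant member per length, read 2109 and 2185 against 2051 and 1948 (-0.10, SE 0.05; adjusted p = 0.0803). Polr2f and Polr2h, both at -0.04, had adjusted p of 0.608 and 0.678. For comparison, 4 of the 7 subunits found in polymerase II alone were higher, among them the targeted gene Polr2c (0.19, SE 0.04; adjusted p = 0.00116). Polr2i was lower (a call lost with median-of-ratios factors and without IAA replicate 1 or untreated replicate 2). The median of the 7 was 0.19 (from -0.27 to 0.46 for Polr2j), while 11.1% of all genes tested were higher and 28.9% lower. Whether shared and specific subunits differ was not tested.

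Polymerase III subunits ranged from -0.29 to 0.23, with 1 higher and 2 lower of 8 (12.5% and 25.0%, near the 11.1% and 28.9% of all genes tested). With median-of-ratios factors the balance turned, to 3 higher and 1 lower. Polr3b, the second largest and part of the catalytic cleft (chromosome 10, 84622292 to 84727178, plus strand, GRCm38), read 944 and 971 in the untreated and 779 and 784 in the IAA libraries. The groups were far apart and each was tight. Means were 957.5 ± 19.1 and 781.5 ± 3.54 (SD, n = 2 each; -0.29, SE 0.06; adjusted p = 0.000439). Polr3a, its catalytic partner, read 859 and 853 against 808 and 801 (-0.09, SE 0.06; adjusted p = 0.237). The Polr3b value divided by that of Polr3a went from 1.10 and 1.14 in the untreated to 0.964 and 0.979 in the IAA libraries. The matching ratio of polymerase I, Polr1b to Polr1a, was higher after IAA, and neither ratio was tested.

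The other polymerase III subunits fall into a trimer that helps open the promoter, a dimer that resembles TFIIF and further subunits, among them one for termination. Within the trimer, Polr3c read 590 and 523 against 478 and 461 (-0.24, SE 0.08; adjusted p = 0.0146) and Polr3f went from 429.5 ± 4.95 to 502.5 ± 24.7 (SD, n = 2 each; 0.23, SE 0.07; adjusted p = 0.0205). These opposite calls were each lost in fits without 1 library: Polr3c without IAA replicate 2 or untreated replicate 1, Polr3f without IAA replicate 1 or untreated replicate 2. With median-of-ratios factors Polr3c was no longer called. The third position of the trimer is filled by Polr3g or Polr3gl. Polr3g, the form typical of stem cells, read 1295 and 1287 against 1272 and 1264 (-0.03), and Polr3gl, the form typical of differentiated cells, read 214 and 223 against 162 and 165 (-0.42, SE 0.11; adjusted p = 0.00444). The dimer genes Polr3d (0.16), Polr3e (0.14) and the termination gene Polr3k (-0.13) were not called, with adjusted p from 0.0575 to 0.248. With median-of-ratios factors Polr3d (0.26; adjusted p = 0.00334) and Polr3e (0.24; adjusted p = 0.000219) were called higher.

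All 3 members of TFIIIB, the factor that holds polymerase III at its start sites, rose, while 11.1% of all genes tested were higher. Brf1 (chromosome 12, 112960085 to 113000704, minus strand, GRCm38), the TFIIB-like subunit used at tRNA genes, read 219 and 248 in the untreated and 349 and 335 in the IAA libraries. All IAA values exceeded the untreated ones. Means were 233.5 ± 20.5 and 342 ± 9.90 (SD, n = 2 each), so that IAA libraries stood at 146% of the untreated level, with a log2 difference of 0.55 (SE 0.09; adjusted p = 0.000109). In the authors' deposited table the log2 fold change was 0.55 with an adjusted p of 0.0717. Brf2, which replaces Brf1 at promoters with upstream elements such as that of U6 RNA, read 248 and 253 against 326 and 305 (0.33, SE 0.09; adjusted p = 0.00672) and was not called without IAA replicate 1. Bdp1, the subunit common to both forms, read 1478 and 1454 against 1692 and 1736 (0.23, SE 0.05; adjusted p = 0.000813). With median-of-ratios factors all 3 were higher as well (0.65, 0.43 and 0.33). Tbp, the remaining TFIIIB subunit, which polymerases I and II also need, moved the other way: it read 555 and 580 against 493 and 496 (-0.20, SE 0.07; adjusted p = 0.0285). That call was lost with median-of-ratios factors and without each of IAA replicate 1, IAA replicate 2 and untreated replicate 2.

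Maf1, the repressor that binds polymerase III and Brf1 when nutrients or growth signals are short, fell. It read 614 and 639 in the untreated and 486 and 476 in the IAA libraries (chromosome 15, 76351294 to 76354380, plus strand, GRCm38). The groups did not overlap, with means of 626.5 ± 17.7 and 481 ± 7.07 (SD, n = 2 each) and a log2 difference of -0.38 (SE 0.07; adjusted p = 0.000183). In the authors' deposited table the log2 fold change was -0.38 with an adjusted p of 0.091. The Brf1 value divided by that of Maf1 was 0.357 and 0.388 in the untreated and 0.718 and 0.704 in the IAA libraries. This pair was picked after the values were seen. It holds the highest and lowest log2 differences of all 39 members, so the direction of the ratio was fixed by the choice. Maf1 is controlled largely by phosphorylation, which these data do not measure.

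TFIIIC, the factor of 6 subunits that recognises the internal promoters of tRNA genes, had 2 subunits higher and 2 lower at the deposited scaling, and 3 higher and 0 lower with median-of-ratios factors. Gtf3c6, the smallest subunit, read 272 and 256 in the untreated and 331 and 375 in the IAA libraries, all above the untreated values. Means were 264 ± 11.3 and 353 ± 31.1 (SD, n = 2 each), with a log2 difference of 0.42 (SE 0.09, adjusted p = 0.00125). The difference was 0.50 without IAA replicate 1 and 0.32 without IAA replicate 2. Gtf3c5, a subunit of the lobe that binds the nearer promoter element, read 418 and 375 against 518 and 437 (0.26, SE 0.09; adjusted p = 0.0208). It was not called without IAA replicate 1 or without untreated replicate 2. Gtf3c1, the largest subunit, which contacts the far promoter element, read 1944 and 1924 against 1713 and 1701 (-0.18, SE 0.05; adjusted p = 0.00343). Gtf3c3, the subunit that contacts TFIIIB, went from 928.5 ± 13.4 to 823.5 ± 10.6 (SD, n = 2 each; -0.17, SE 0.06; adjusted p = 0.0212). Both falls were no longer called with median-of-ratios factors, and that of Gtf3c3 was also lost without IAA replicate 1, IAA replicate 2 or untreated replicate 2. Gtf3c4 (0.12) and Gtf3c2 (0.02) were not called, but with median-of-ratios factors Gtf3c4 was called higher (0.23; adjusted p = 0.00126). Gtf3c2 shares 38.9% of its exon bases with Gm29609 on the same strand, so its count is uncertain. The Gtf3c6 value divided by that of Gtf3c1 went from 0.140 and 0.133 to 0.193 and 0.220. These are the genes of highest and lowest log2 difference among the 6, so the direction of their ratio was fixed by the choice.

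Gtf3a, or TFIIIA, the zinc finger protein that binds the gene of 5S ribosomal RNA, read 425 and 476 against 457 and 420, with overlapping groups (-0.04, SE 0.08; adjusted p = 0.744). A share of 59.1% of its exon bases overlaps Mtif3 on the opposite strand, so with the strand setting not given this count may hold reads of Mtif3.

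Bases upstream of RefSeq start sites are shown for 5 called members, to let a reader compare promoters with and without the motifs searched. Of 8 called members with an unbroken run of at least 200 such bases free of annotated exons, 7 rose and 1, Gtf3c3, fell. The 3 risen members with a marked motif were chosen for it, after the matches were seen, and Polr1b stands for the 4 risen members without one (Polr1b, Polr1e, Polr1f and Polr3f). They are on GRCm38.p6, 5′ to 3′ on the strand of the gene: Cd3eap at chr7:19359484-19359733 (minus), Gtf3c6 at chr10:40257713-40257916 (minus), Bdp1 at chr13:100104071-100104320 (minus), Polr1b at chr2:129100746-129100994 (plus) and Gtf3c3 at chr1:54439027-54439276 (minus). Bases inside annotated exons were left out, and the Gtf3c6 stretch lies inside the longer GENCODE model of that gene. Capitals mark CACGTG, the E-box that Myc and related factors can bind, and CCGGAAG or its reverse complement CTTCCGG, a core that ETS factors can bind.
Cd3eap: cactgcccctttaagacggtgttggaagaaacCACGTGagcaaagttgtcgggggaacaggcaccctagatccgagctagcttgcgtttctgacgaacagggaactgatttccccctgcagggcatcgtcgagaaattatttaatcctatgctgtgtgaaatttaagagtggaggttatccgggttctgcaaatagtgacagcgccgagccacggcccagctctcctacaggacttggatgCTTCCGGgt
Gtf3c6: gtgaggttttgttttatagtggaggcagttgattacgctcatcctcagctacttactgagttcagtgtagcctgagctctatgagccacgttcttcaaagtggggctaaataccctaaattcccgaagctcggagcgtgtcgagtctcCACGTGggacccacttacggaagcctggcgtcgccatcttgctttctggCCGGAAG
Bdp1: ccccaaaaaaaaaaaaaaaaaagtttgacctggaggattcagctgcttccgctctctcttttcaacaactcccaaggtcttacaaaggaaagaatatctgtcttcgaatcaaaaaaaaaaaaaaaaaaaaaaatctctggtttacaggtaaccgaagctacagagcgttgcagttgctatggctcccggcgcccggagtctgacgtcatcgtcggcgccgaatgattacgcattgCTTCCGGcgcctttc
Polr1b: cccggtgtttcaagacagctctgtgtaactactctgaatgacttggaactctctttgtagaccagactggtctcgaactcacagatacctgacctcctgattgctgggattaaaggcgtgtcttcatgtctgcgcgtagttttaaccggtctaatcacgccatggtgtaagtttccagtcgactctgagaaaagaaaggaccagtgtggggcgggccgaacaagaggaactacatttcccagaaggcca
Gtf3c3: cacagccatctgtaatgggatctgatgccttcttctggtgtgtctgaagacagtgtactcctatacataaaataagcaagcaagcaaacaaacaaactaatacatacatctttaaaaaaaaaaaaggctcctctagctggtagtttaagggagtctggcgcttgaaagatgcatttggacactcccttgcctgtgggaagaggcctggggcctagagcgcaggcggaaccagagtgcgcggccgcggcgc

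Both the E-box and the ETS-type core occur upstream of Cd3eap and Gtf3c6, the latter core occurs upstream of Bdp1, and Polr1b and Gtf3c3 have neither. The RefSeq table held a window for 31 of the 39 members. Within the 250 bases before the start, on either strand, CCGGAAG was present in 10 of the 31 (32.3%), against 15.3% of the 10717 tested genes with a window and 7.83% of all 27025 genes in the table. It was found in 3 of 9 members that rose and 3 of 5 that fell (Gtf3c1, Polr1c and Polr3b, whose sequences are not shown). CACGTG was present in 4 of 31 (12.9%), against 9.95% of tested genes and 6.86% of all, namely Cd3eap, Gtf3c6, Polr3c and Rrn3. The GC box GGGCGG was present in 14 of 31 (45.2%, against 64.2% of tested genes) and TATAAA in 1, Gtf3c6 (3.23%, against 7.64%). These are matches of letters and show no binding.

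Levels of different members were compared per exonic kilobase. In the untreated libraries Polr2e was the highest, at 790 and 818 normalised read counts per kilobase, and Brf1 the lowest, at 28.1 and 31.8. Rrn3 came next to Polr2e (502 and 548), followed by Ubtf (451 and 463), which it exceeded in both libraries. The 7 shared subunits all lay among the 11 highest. Several neighbours did not differ beyond their spread: Polr1c (413 and 425) overlapped Polr2h (419 and 407), and Polr1b (166 and 171) overlapped Polr1a (167 and 168). Within TFIIIB, Bdp1 (134 and 132) exceeded Brf2 (77.2 and 78.8), and Brf2 exceeded Brf1. After IAA, Brf1 remained the lowest at 44.8 and 43.0 per kilobase, Polr1c moved from 4th to 7th place by its mean, and Polr1b (194 and 188) no longer overlapped Polr1a (164 and 164). Lengths are unions of all annotated exons, so genes with many unused exons are understated.

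**Figure D4:**
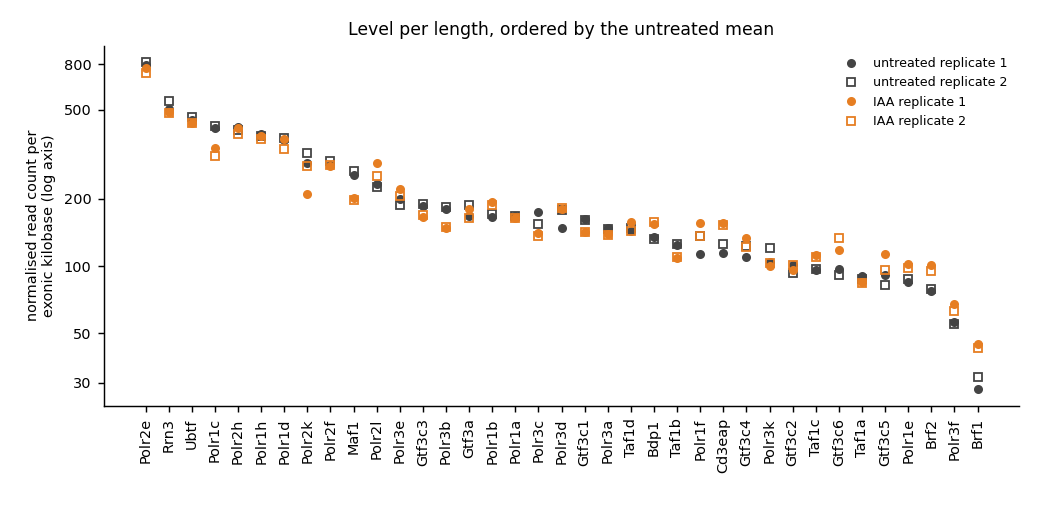
Normalised read count per exonic kilobase in each library, on a log axis, for 37 members, ordered by the untreated mean. Dark grey marks are untreated and orange marks IAA libraries. Polr2e stands highest and Brf1 lowest in every library, and the orange marks of Polr1c and Maf1 lie below the dark grey ones.

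Other genes that act with these enzymes also moved both ways, as did genes at large. Of all genes tested, 11.1% were higher and 28.9% lower at the deposited scaling, and 20.4% and 20.4% with median-of-ratios factors. Of 23 genes for the La protein, RNase P and tRNA end processing, 2 were higher and 9 lower (median -0.02). With median-of-ratios factors the balance turned, to 6 higher and 4 lower (median 0.08). Rpp25, a protein of RNase P and RNase MRP, had the largest rise, from 685 and 714 to 1407 and 1313 (0.96, SE 0.06; adjusted p = 2.64e-10). Tsen15, a subunit of the endonuclease that removes tRNA introns, had the largest fall, from 336 and 320 to 213 and 201 (-0.66, SE 0.09; adjusted p = 1.45e-05). Among 18 regulators of ribosomal DNA and polymerase I, 7 were higher and 6 lower (median -0.03), and so many also with median-of-ratios factors. Npm1, an abundant nucleolar chaperone, went from 21566 and 22038 to 15811 and 16133 (-0.45, SE 0.03; adjusted p = 2.64e-10), and Suv39h1, a histone methylase, from 434 and 424 to 554 and 467 (0.25, SE 0.08; adjusted p = 0.0224), which was not called without IAA replicate 1.

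Of 8 proteins of the early processing complex that couples to ribosomal RNA synthesis, 1 was higher and 3 lower (median 0.01), from Wdr36 (-0.30, SE 0.05; adjusted p = 5.96e-05) to Wdr43 (0.19, SE 0.04; adjusted p = 0.00199). With median-of-ratios factors 4 were higher and 2 lower (median 0.11). Of 11 genes for mTOR, casein kinase 2 and Myc factors, which regulate both polymerases, 2 were higher and 4 lower (median 0.01), against 3 and 3 with median-of-ratios factors. Rptor, the mTORC1 scaffold, fell (-0.23, SE 0.06; adjusted p = 0.00266) and Max, the partner of Myc, rose (0.26, SE 0.07; adjusted p = 0.00349). Of Tbp and 7 factors of small nuclear RNA promoters, Snapc4 rose (0.33, SE 0.06; adjusted p = 0.00037), Tbp fell as given above, and the other 6 were not called. With median-of-ratios factors 4 of these 8 were higher and 0 lower, since Pou2f1 (0.18; adjusted p = 0.00324), Snapc3 (0.23; adjusted p = 0.0114) and Zfp143 (0.19; adjusted p = 0.0331) were called higher and Tbp was not called. The medians of these 5 lists, the last at 0.08, lay above the -0.11 of all genes tested.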

How the data were processed

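Poly(A) RNA of 4 libraries was used, in groups and with replicate numbers taken from the sample titles. Among the tools in the submitters' processing notes are STAR, featureCounts and DESeq2. Both mm10 (mouse) and dm6 (fruit fly) are listed as builds, each with no role stated. The sources used here give neither annotation nor strand setting. Values per library, as the authors deposited them, are treated as scores, since they are reads over a size factor, rounded. A deposited signal column holds the same mean over libraries before rounding. From it came factors of 0.88, 0.87, 0.98 and 0.95 (untreated, then IAA), and whole reads for 100% of genes (tolerance 0.001 on that mean). The median-of-ratios factors of those reads were 0.988, 0.992, 1.04 and 0.994 in the same order. What the deposited factors were computed from was not examined. The deposited log2 fold changes and their SE, the Wald scores, the p-values and the adjusted p-values are the authors' own.

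Genes with a mean of at least 10 (14928 of 30282) entered a limma 3.58.1 fit under R 4.3.3 of log2(value + 1) (trend, Benjamini-Hochberg adjustment over all genes, two-sided), called at an adjusted p under 0.05, and checked on simulated data. The smallest change planted there exceeded the differences of all called members but Brf1, so the check does not cover changes of their size. Differences on this scale slightly understate changes of low genes. Where a call is said to be lost without a library, the fit used unrounded values, an alternative added after seeing the data. Gene models are GENCODE M21 (30214 identifiers matched), whose GRCm38 is the assembly called mm10; promoters are RefSeq windows. Counts cover all 39 members, of which 1 is not reported by name or drawn here. Members and lists were chosen with earlier results of these data known. Named genes are the members, the targeted gene, the pair Polr3g and Polr3gl and, per list, the largest called rise and fall; single cell type markers, and list genes called only with other factors, were named after their values were seen; per-library values were set out for the 12 largest called differences and the highest member per role, and for further members after their values were seen. Alternatives covered scaling, filter, pseudocount, tool, thresholds, the replicate number and leaving out libraries.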

Additional observations from a re-analysis of the deposited data

How the results depend on the processing

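The direction of each of the 17 called members was the same under every alternative run. Pseudocounts of 0.5 and 5, a minimum mean of 100, unrounded values and voom on recovered reads kept all 17 calls. The replicate number as a replicate block gave 11 members higher and 7 lower and also kept the 17; same-numbered libraries did not deviate together (correlation across genes 0.0015), and with 2 numbers no pairing can be shown.

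Median-of-ratios factors and library totals each left 3 members lower and moved the median of the members to 0.0669 and 0.0707. A fold of at least 1.2 left 5 higher and 3 lower. An adjusted p under 0.01 left 5 higher, with Polr1c, Maf1, Polr3b and Gtf3c1 still lower. An adjusted p under 0.1 gave 10 lower, and it added Taf1c and Polr3e to the members called higher. By the authors' deposited table, 0 members were higher and 1 was lower. With no filter, limma called 0 members higher and 0 lower, against 9 and 8 at an unadjusted p under 0.05. Leaving out 1 library from the rounded values called no gene at all in limma, where 4738 to 5080 genes had an unadjusted p under 0.05. Tied rounded values leave a variance prior of 1.56 to 1.57 degrees of freedom there, against 18.0 with all libraries, so those fits do not test stability. With unrounded values the prior was infinite, and a library left alone in its group borrows the spread of the remaining pair. Over all fits without 1 library, 0 to 11 members were higher and 0 to 8 lower. With unrounded values 4 were higher without IAA replicate 1, where 8 of the 17 calls were lost, and 9 to 11 without any other library.

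Among members not called, the sign turned with median-of-ratios factors for Polr1d (0.0245), Taf1a (0.0197), Ubtf (0.0409), Polr1h (0.0669), Polr1a (0.0695), Polr3a (0.0114), Gtf3a (0.0631), Polr2f (0.0573) and Polr2h (0.0617), and with library totals for Polr1d (0.0283), Taf1a (0.0235), Ubtf (0.0446), Polr1h (0.0707), Polr1a (0.0733), Polr3a (0.0152), Gtf3a (0.0669), Polr2e (0.0017), Polr2f (0.0610) and Polr2h (0.0654). Without 1 library, Taf1d ranged from -0.0287 to 0.113, Gtf3a from -0.119 to 0.0440, Gtf3c2 from -0.0421 to 0.0756 and Polr2h from -0.0856 to 0.0071. The cause of these changes was not tested.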
